A study of Homo sapiens with 8 samples.

Results

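Monomethylation of lysine 4 on histone H3 (H3K4me1) was mapped by ChIP-seq (sequencing of immunoprecipitated chromatin) in MDA-MB-231, an established human line of mesenchymal-like triple-negative breast cancer. The 8 samples formed 4 groups of 2: H3K4me1 immunoprecipitates and inputs of ARID1A knockout cells, and H3K4me1 immunoprecipitates and inputs of control cells. All of them were this 1 line, and the sources used here give neither the knockout method nor the number of clones. Each genotype has 1 peak list as deposited by the authors, so every value below describes these 2 lists, has no spread between replicates and carries no p-value. The region described is the part of the long arm of chromosome 18 from 45 Mb to the end (hg38). It holds 575 knockout peaks and 576 control peaks, 1151 of the 156603 peaks deposited. Its members were chosen by position, after earlier results of these lists had shown that the input background behind the peaks was low there and that covered bases differed between the lists in some of its bins of 5 Mb. Backgrounds, coverage and gene differences below are therefore given as descriptions.

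H3K4me1 is written by the KMT2C and KMT2D methyltransferase complexes and marks enhancers, both poised and active, and the flanks of active promoters. ARID1A is the large DNA-binding subunit of the canonical SWI/SNF remodelling complex, which moves nucleosomes and keeps many enhancers accessible. In a ChIP-seq experiment the input, chromatin that was not immunoprecipitated, supplies the background against which a peak is called, and the caller uses either the local input or a mean over the whole genome, whichever is higher. The region carries TGF-beta signalling genes (SMAD2, SMAD4, SMAD7), the survival gene BCL2, a cluster of clade B serpins, which are mostly intracellular protease inhibitors, and several neuronal genes separated by long gene-poor stretches.

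Few gene starts of the region carried a peak. Promoter windows (250 bases before to 50 after an annotated start, RefSeq, GRCh38.p14) were matched for 113 genes of the region, giving 171 windows. Of these, 25 (14.6%) overlapped a knockout peak and 14 (8.19%) a control peak, against 25.8% and 17.5% of the 21969 windows in the rest of the genome, and 13 did so in both lists. A peak in the knockout list alone covered 12 windows of 9 genes, 48% of the windows with a knockout peak, against 49.2% elsewhere. A peak in the control list alone covered 1 window, 7.14% of those with a control peak, against 25.2%. The 250 bases before 3 starts are shown, each for a different reason: TCF4, which had the largest difference in covered bases; HAUS1, whose start lay under the strongest of the knockout-only peaks that covered a whole window; and PARD6G, the 1 control-only start. They are written 5′ to 3′ along the gene, and capitals mark CG dinucleotides. A gene can have several annotated starts, and the TCF4 start shown lies inside its record (chr18:55222185-55635957), not at its outer end.

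TCF4 (chr18:55422298-55422547, minus strand): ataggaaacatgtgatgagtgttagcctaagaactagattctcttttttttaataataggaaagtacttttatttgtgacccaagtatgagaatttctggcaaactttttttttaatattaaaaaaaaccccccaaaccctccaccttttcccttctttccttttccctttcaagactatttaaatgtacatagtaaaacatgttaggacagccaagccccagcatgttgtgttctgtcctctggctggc

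HAUS1 (chr18:46104135-46104384, plus strand): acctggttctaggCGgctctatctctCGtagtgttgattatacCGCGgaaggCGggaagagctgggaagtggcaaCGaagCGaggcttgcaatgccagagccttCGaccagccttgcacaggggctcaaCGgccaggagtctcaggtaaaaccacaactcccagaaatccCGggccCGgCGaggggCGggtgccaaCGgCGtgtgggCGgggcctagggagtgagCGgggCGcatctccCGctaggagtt

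PARD6G (chr18:80247515-80247764, minus strand): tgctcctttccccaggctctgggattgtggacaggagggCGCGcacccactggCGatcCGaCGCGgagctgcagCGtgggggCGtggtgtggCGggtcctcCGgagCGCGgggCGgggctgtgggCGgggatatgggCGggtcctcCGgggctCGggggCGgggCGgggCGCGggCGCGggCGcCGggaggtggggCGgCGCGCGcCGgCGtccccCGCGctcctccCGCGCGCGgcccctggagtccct

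The stretch before the TCF4 start shown held 0 CG pairs and was 36% G and C. That before HAUS1 held 19 and was 62.8%, and that before PARD6G 37 and 80.4%. The median was 16 CG pairs over 22140 promoters. Neither TGANTCA, the AP-1 motif, nor GGAATG, a TEAD motif, each searched on both strands, occurred in the 3 stretches, whereas the same length before NEDD4L held 1 match of each and that before ATP5F1A 1 TEAD match. These letters were found in 5.36% and 10.5% of all promoters of the same length. The TCF4 start shown lay inside a knockout peak of 9.94 pileup, with the nearest control peak 186687 bases away. Pileup is the authors' number of stacked fragments at the peak. At HAUS1, a subunit of the augmin complex of the mitotic spindle, the knockout peak (18.81 pileup) ran through the start, and a control peak stopped 54 bases short of the window. ATP5F1A, which encodes the alpha subunit of mitochondrial ATP synthase and starts beside HAUS1 on the other strand, shared that knockout peak. A start of NEDD4L, also inside its record, was similar. There 63 bases of the window lay under a knockout peak, and a control peak ended 13 bases away. PARD6G, a cell polarity gene, had a control peak of 8.96 pileup over its start and no knockout peak in the record with 5000 bases on either side. The HAUS1, ATP5F1A and NEDD4L calls thus turn on a few bases of peak edge, and the TCF4 call does not.

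Background was low from about 47 Mb and not before, so the first 2 Mb of the region do not share the feature for which it was chosen. The background implied by a peak was taken as (pileup + 1) / fold − 1, where fold is the authors' enrichment over input. Its lowest value was 2.60 in the knockout list and 2.40 in the control list, the level at which the caller falls back on its genome-wide mean. From 45 to 47 Mb the median background was 4.73 over 43 knockout peaks and 4.57 over 59 control peaks. The first peak within 1% of the lowest value started at base 46706791 in the knockout list and at base 46913654 in the control list. From 47 Mb on, the medians were 2.69 over 532 knockout peaks and 2.42 over 517 control peaks, and 38.0% of knockout peaks and 57.3% of control peaks were within 1% of the lowest value. In the rest of the lists those shares were 3.10% and 5.14%, and the medians 4.62 and 3.71. At the lowest value the local input no longer enters the fold, so the lists cannot show whether input there differed between the genotypes. At the chosen start of 45 Mb itself nothing stepped. In the knockout list the last peak outside had a pileup of 18.51 and a background of 4.60, and the first inside 11.26 and 3.06. In the control list the last peak outside had 11.63 and 3.61, and the first inside 11.04 and 3.60.

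**Figure D1:**
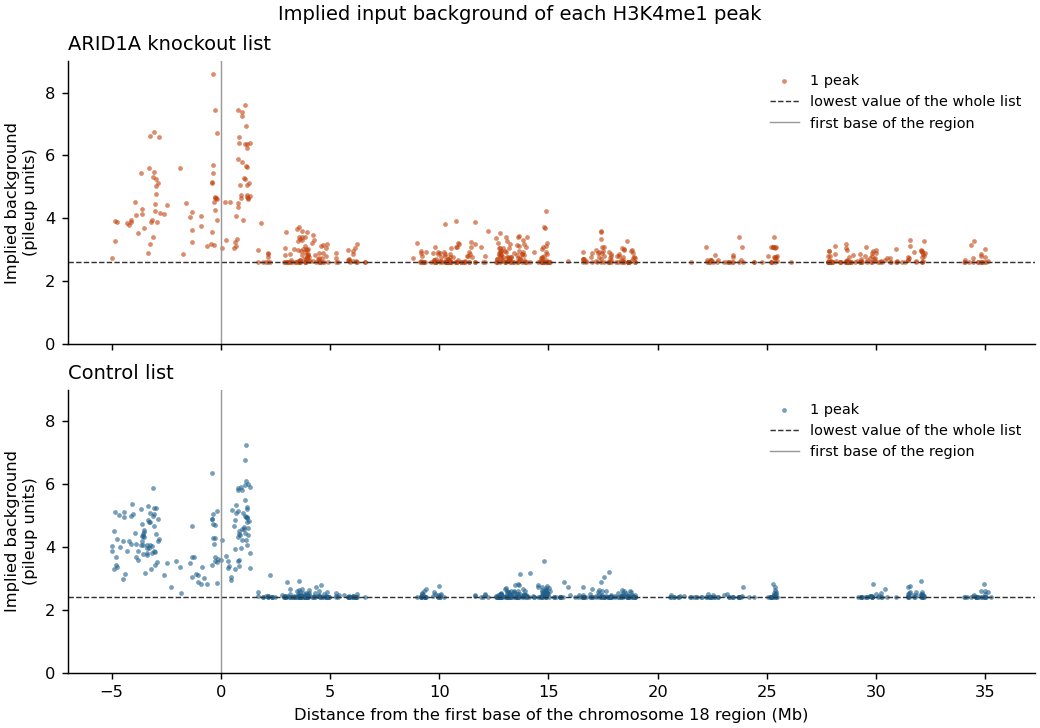
Implied input background of each peak (pileup units) against distance from base 45000000 of chromosome 18, in Mb, for the ARID1A knockout list (top) and the control list (bottom); each point is 1 peak, the dashed line the lowest value of the whole list and the grey line the start of the region. Before the region and in its first 2 Mb points lie mostly above the line, and from 47 Mb the medians are 2.69 (knockout) and 2.42 (control).

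Signal was lower in the region as well. Median pileup in the region was 11.1 in the knockout list and 9.70 in the control list, against 16.5 and 13.7 in the rest of the lists, while median fold was 3.15 and 2.99, against 3.07 and 3.04. Peaks were also weaker by the authors' q value: 87 knockout peaks (15.1%) and 51 control peaks (8.85%) had a −log10 q of at least 5, against 37.6% and 28.9% in the rest of the lists. The strongest peaks of the region all lay in its first 2 Mb, where background was not low. The top peak in the knockout list was at EPG5, an autophagy gene (chr18:45950206-45966424), with 43.19 pileup, against 36.03 for the control peak it overlapped. The top control peak by q was also at EPG5 (chr18:45801097-45804149), where pileup was 39.47 in the overlapping knockout peak and 38.21 in the control peak. The longest knockout peak of the region lay in NEDD4L and spanned 23025 bases, and the longest control peak lay in ATP8B1 and spanned 20486. Over the 346 pairs in which 1 knockout and 1 control peak overlapped only each other, the knockout to control ratio of pileup had a median of 1.16 (quartiles 1.01 and 1.29), close to the 1.17 of the rest of the lists.

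The region had about as many knockout as control peaks. The ratio of peak numbers, knockout over control, was 0.998 (95% interval 0.888 to 1.12, counting error only), against 0.886 in the rest of the lists and 0.717 (0.655 to 0.786) in the rest of chromosome 18, where 807 knockout and 1125 control peaks were listed. Knockout peaks covered 1315143 bases and control peaks 1188635, a ratio of 1.11, against 0.961 in the rest of the lists and 0.853 in the rest of chromosome 18. Among knockout peaks 188 (32.7%, exact Clopper-Pearson 95% interval 28.9 to 36.7) overlapped no control peak, against 21.2% in the rest of the lists. Among control peaks 179 (31.1%, 27.3 to 35.0) overlapped no knockout peak, against 28.1%. Neighbouring peaks are not independent and the intervals leave out the spread between cultures, so they are narrower than the true uncertainty. Without the 2 runs of peaks described next, a removal chosen after the values were seen, the ratio of bases turned to 0.951, the ratio of peaks was 0.840 and the knockout share without overlap was 20.0%.

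Over all peaks, the excess of knockout coverage lay in 2 stretches, at TCF4 and around NETO1. Among peaks with −log10 q of at least 5 it lay mostly elsewhere: the 87 knockout peaks covered 338633 bases and the 51 control peaks 207401, and only 3 of the 87, with 9787 bases, were in the runs. Along each chromosome, knockout peaks were grouped into runs of neighbours with no control overlap. Of 10477 such runs in the genome, the 2 longest, of 49 and 42 peaks, were both in this region, and the next longest, on chromosome 7, had 29. They remained the 2 longest, with the same ends, when both lists were given the same merging distance and shortest peak. With peaks of −log10 q of at least 5 alone in both lists, the longest runs of the region had 15 and 7 peaks. They ranked 3 and 74 of 5405. With fold of at least 4 in both lists they had 7 and 5 and ranked 24 and 131 of 2769. Control runs in the region were shorter, the longest being 11 peaks, although control runs of 10 or more were commoner in the genome, 41 of them in the knockout list and 88 in the control list.

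The first run, of 49 knockout peaks, spanned 1378610 bases (chr18:55250435-56629044), from within TCF4 to TXNL1, and no control peak was listed there. TCF4 (chr18:55222185-55635957, Gene ID 6925) encodes an E protein, a helix-loop-helix factor best known from lymphoid and neuronal development. It is not TCF7L2, the Wnt effector that is sometimes called by the same name. Its 24 knockout peaks had pileups of 8.16 to 14.35 with a median of 9.76, whereas its 1 control peak had 8.14. Of the 24, 23 overlapped no control peak. Knockout peaks covered 64410 bases of the record and its margins of 5000 bases, and the control peak 361. Inside the record 23 peaks of the run covered 62368 bases. Another 25 peaks covered 43356 bases in the 961252 bases between TCF4 and TXNL1, a stretch without other protein-coding records, and 1 peak of 2034 bases lay in TXNL1. TXNL1, a thioredoxin-like gene where the run ends, had 4817 covered bases in the knockout list and 1864 in the control list.

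These peaks were weak. Their median fold was 2.93 (2.32 to 4.08) and their median −log10 q 2.29 (1.19 to 5.38), with 1 peak at 5 or above. The 387 knockout peaks of the region that overlapped a control peak had a median fold of 3.32, a median −log10 q of 3.39 and a median pileup of 11.95, against 9.79 in the run. The region's 97 knockout peaks without overlap outside the 2 runs had medians of 2.95, 2.42 and 10.19 for fold, −log10 q and pileup. Median background in the run was 2.63, and 23 of its peaks (46.9%) were within 1% of the lowest value. With only peaks of −log10 q of at least 5, the difference at TCF4 was 3272 bases, and with fold of at least 4 it was 1230, both higher in the knockout list. Weak peaks were more often without a partner in either list: with −log10 q of 1 to 2, 56.7% of the region's knockout peaks and 54.4% of its control peaks overlapped none in the other list, and at 5 or above 8.05% and 3.92%. Those knockout shares include the peaks of both runs, which lack a partner by the way runs were found, and without them they were 40.9% and 4.76%. In the rest of the lists the same classes gave 52.4% and 60.6% for the weak peaks, and 2.75% and 3.23% for the strong ones. Peak strength thus moves with the lack of a partner, and its part in the run was not tested, since read counts were not analysed here.

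The second run, of 42 knockout peaks, spanned 2899711 bases (chr18:71114808-74014518). The control peaks on either side ended at base 70464664 and started at base 74149559, so the control list was empty over the whole stretch between them. The first peak of the run stood alone, and the next started at base 72776930, so nearly all of the run lay from NETO1 onward. NETO1 (chr18:72742314-72867987, Gene ID 81832), which encodes a transmembrane partner of glutamate receptors, carried 9 knockout peaks with pileups of 8 to 15.95 and 20666 covered bases, whereas the control list had none. A peak among them (chr18:72811078-72812676) had a −log10 q of 6.36, among the highest of the region's knockout peaks without overlap. CBLN2, a synaptic organiser and the other protein-coding gene in the run, had 0 covered bases in both lists. Only 8 peaks of this run had their midpoint in a protein-coding record, and 29 were over 50 kb from any. Peaks covered 2.66% of its span, which includes the long gap after its first peak, against 7.82% in the TCF4 run. Pileup had a median of 9.43 (8 to 15.95), fold 2.84 (2.50 to 4.45) and −log10 q 2.10 (1.39 to 6.36), with 2 peaks at 5 or above and 25 (59.5%) within 1% of the lowest background.

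**Figure D2:**
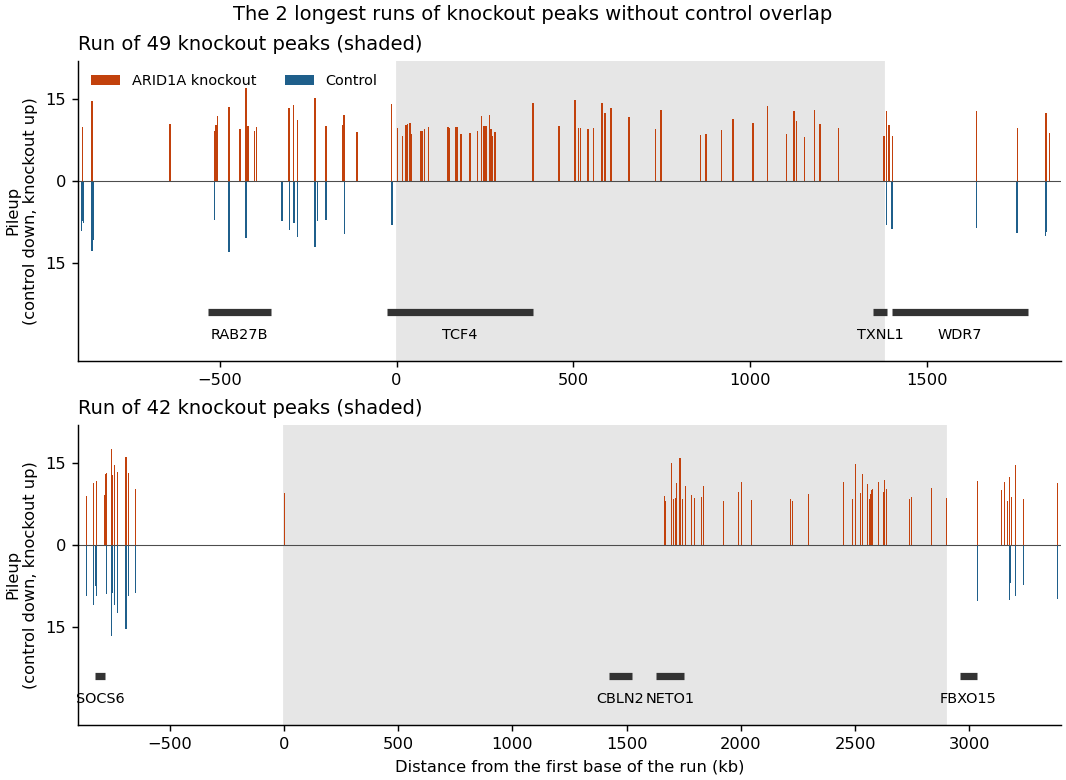
Pileup of each peak against distance from the first base of the run (kb) for the 2 longest runs of knockout peaks without control overlap, with knockout peaks drawn upward, control peaks downward (peaks narrower than 4 kb are drawn 4 kb wide), the run shaded and gene records as dark bars. The 49 peaks of the TCF4 run and the 42 of the NETO1 run have no control peak below them, whereas both lists have peaks outside the shading.

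Bin by bin, the direction of the difference varied along the arm when all peaks were kept. From 70 to 75 Mb 83 knockout and 38 control peaks covered 164585 and 69885 bases, a ratio of 2.36 that ranked 5 among the 571 bins of 5 Mb with 40 or more peaks in the 2 lists together, of which 2.80% had a ratio of at least 1.5. There 62.7% of knockout and 18.4% of control peaks lacked a partner. From 50 to 55 Mb the ratio was 1.24 (105141 and 84701 bases) and from 55 to 60 Mb 1.23 (459897 and 374023 bases), with 165 knockout and 128 control peaks in the second. The second holds the TCF4 run, whose 107758 bases are more than the difference between the lists in that bin. With −log10 q of at least 5 the ratios of these 2 bins were 2.87 and 2.09. The knockout list covered less from 45 to 50 Mb, at 275828 against 321355 bases (0.858), from 60 to 65 Mb, at 135541 against 157969 bases (0.858), and from 65 to 70 Mb, at 47666 against 53781 bases (0.886). With −log10 q of at least 5 the first and second of these turned to 1.22 and 1.99. The bins from 70 to 75 and from 75 to 80 Mb had 2.785 and 1.18 at that q. Every bin from 45 to 80 Mb that had a ratio was thus above 1 there. At that cutoff the rest of the lists also held more knockout than control peaks, at 27484 and 23833. From 75 to 80 Mb the 2 lists covered 121485 and 118123 bases, a ratio of 1.03, and beyond 80 Mb only 3 knockout and 4 control peaks remained. Control peaks without a partner were most frequent from 65 to 70 Mb, where 24.1% of 29 knockout peaks and 52.2% of 46 control peaks lacked one.

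**Figure D3:**
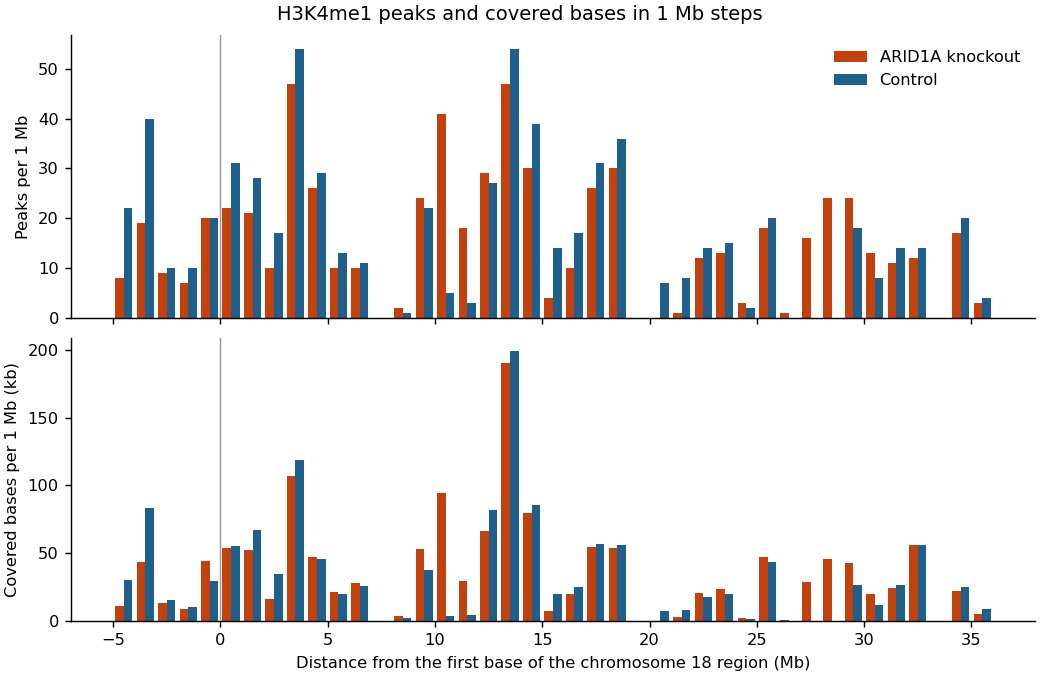
Peaks (top) and covered bases in kb (bottom) per 1 Mb against distance from base 45000000 of chromosome 18 in Mb, ARID1A knockout bars left of control bars. Between 27 and 29 Mb from the start only knockout bars are present, the NETO1 run, and near 10 Mb knockout bars far exceed control bars, the TCF4 run.

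**Figure D4:**
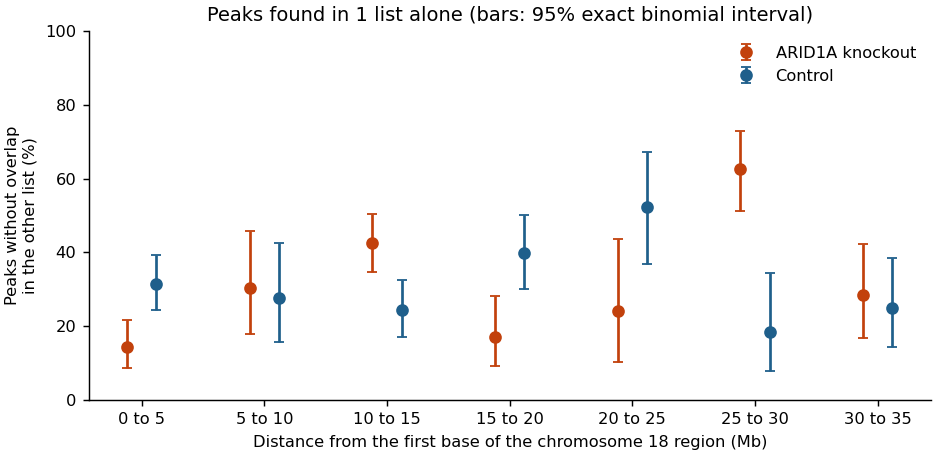
Share of peaks (%) that overlap no peak of the other list in the 7 bins of 5 Mb with enough peaks, by distance from base 45000000 in Mb; points are shares, bars 95% exact binomial intervals over peaks, knockout left of control. The knockout share is above the control share by most in the bin from 25 to 30 Mb (62.7% and 18.4%), and below it from 0 to 5, 15 to 20 and 20 to 25 Mb.

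Elsewhere in the genome, no bin with such a low background had a ratio as high as the region's bin from 70 to 75 Mb. Bins whose median background lay within 5% of the lowest value in both lists numbered 6 in the region and 12 elsewhere, on chromosomes X, 9 and 21. The ratio of covered bases was 0.858 to 2.36 (median 1.13) in the 6, and 0.663 to 1.34 (median 0.987) in the 12. Of the 6, only the bin from 70 to 75 Mb lay outside the range of the 12. Pileups in the knockout list were alike, with medians over the bins of 10.8 in the region and 10.7 elsewhere. In the control list they were higher in the region, with a median of 9.49 (8.21 to 10.12), against 8.83 (8.47 to 9.475) elsewhere. The region was chosen with its low background and the differences in some of its bins already known, so this comparison is a description only. With 1 list per genotype the difference in ratio could not be tested.

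Over genes, the balance of higher and lower coverage was near that of the genome. A gene was counted as higher or lower when its covered bases differed by 1000 or more between the lists, over the record with 5000 bases on either side. Of the 130 protein-coding genes of the region, 30 (23.1%) were higher in the knockout list, against 20.2% of all 19974 genes, and 38 (29.2%) were lower, against 30.0%. A further 62 lay in between, 22 of them without a peak in either list. A peak was listed in the knockout list alone at 5 genes (3.85%), against 2.26% of all genes, and in the control list alone at 10 (7.69%), against 4.36%. The 22 genes without a peak were 16.9% of the region's genes, against 15.8% of all genes. The median difference was 0 bases in the region and over all genes. These counts depend on the strength of the peaks kept. With −log10 q of at least 5, 23 of the 130 genes were higher and 7 lower. Both were smaller shares than the 26.7% and 17.7% of all genes. With fold of at least 4, 20 of the 130 were higher, a share near the 14.5% of all genes. At that fold 10 were lower, a smaller share than the 19.4% of all genes. At both cutoffs SMAD2, TNFRSF11A, CYB5A, ATP9B, SERPINB13, TSHZ1, ZNF236 and the 3 cadherins named below had no difference left, and over the gene record alone MBD1 (268 bases), SERPINB13 (−929) and ZNF236 (−226) did not reach 1000. The named genes are the up to 3 largest differences in each direction in each bin, without overlapping windows, and members of lists by function. The lists hold 3 to 13 genes, and their counts were not tested against the shares of all genes.

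**Figure D5:**
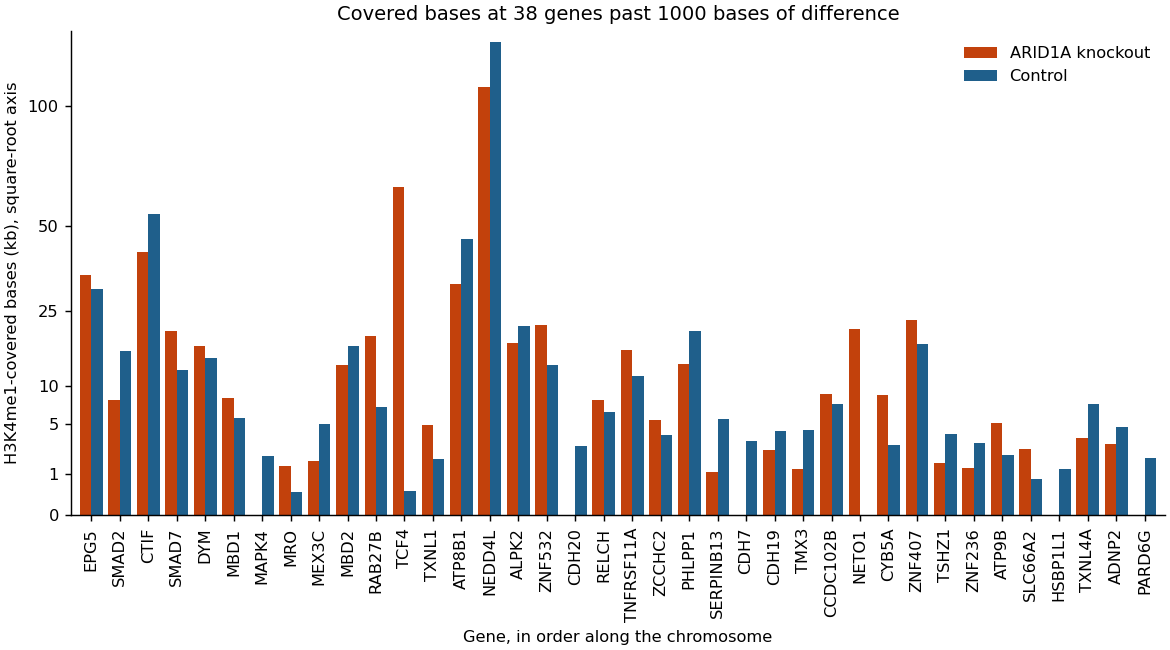
Bases covered by H3K4me1 peaks (kb, square-root axis) over each gene record with 5000 bases on either side, for 38 genes with the largest differences per bin, in chromosome order; knockout bars stand left of control bars. TCF4 (64410 and 361 bases) and NETO1 (20666 and 0) have tall knockout bars and little or no control bar.

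TGF-beta signalling genes differed in both directions. SMAD7, the inhibitory SMAD that blocks the receptor, had 20354 covered bases in the knockout list and 12520 in the control list, with a longest peak of 8834 and 4377 bases. SMAD2, a receptor-activated SMAD, had 7934 and 16211 bases in knockout and control cells, with 3 and 5 peaks. SMAD4, the common partner of receptor-activated SMADs, had 12802 and 14768. The list of 3 thus held 1 gene higher and 2 lower, against 20.2% and 30.0% of all genes. Its median was −1966 bases, against 0 over all genes. SMAD7 did not keep its direction with stronger peaks: the difference was −2768 bases with −log10 q of at least 5 or fold of at least 4. Pileups at SMAD2 were 10.48 to 13.90 in the knockout list and 7.66 to 10.77 in the control list. The list with fewer covered bases thus had the taller peaks. Pileup was higher in the knockout list in general, with medians of 16.5 and 13.7 in the rest of the lists.

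Several well covered genes had fewer covered bases in the knockout list, and some of these turned with stronger peaks. NEDD4L, a ubiquitin ligase that acts on membrane channels and SMADs, was the most covered gene of the region, with 109493 bases in 20 knockout peaks and 133954 bases in 22 control peaks. Its pileups reached 15.53 in the knockout list and 12.76 in the control list, and with −log10 q of at least 5 its coverage was higher in the knockout list, by 30405 bases. ATP8B1, an aminophospholipid flippase, had 31999 and 45709 bases, and CTIF, a translation factor that works with the cap-binding complex, 41268 and 54312 in the knockout and control lists. PHLPP1, a phosphatase of AKT, had 13729 and 20310. With −log10 q of at least 5 ATP8B1 and PHLPP1 also turned, to 1696 and 2819 more bases in the knockout list, while CTIF and ALPK2, a kinase gene with 17687 bases in the knockout list and 21421 in the control list, did not turn. MBP, which encodes myelin basic protein, had nearly equal coverage, at 48759 and 49770 bases. The strongest control peak without a knockout partner in the region was in CTIF (chr18:48675544-48676022, −log10 q 7.18), 12611 bases from the nearest knockout peak.

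Membrane traffic and ubiquitin genes held 2 higher, 3 lower and 2 between of 7, against 20.2% higher and 30.0% lower of all genes. RAB27B, a small GTPase of secretory vesicle and exosome release, had 9 knockout peaks over 19277 bases and 3 control peaks over 6962. Of the 9, 6 overlapped no control peak, and the highest pileup was 17.05 in the knockout list and 12.99 in the control list. ATP9B, a phospholipid flippase of the Golgi, had 5071 and 2154. On the lower side beside NEDD4L and ATP8B1, MYO5B, a myosin motor of recycling endosomes, had 5094 bases in the knockout list and 6854 in the control list.

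Survival and NF-kB genes were split 2, 2 and 2 between higher, lower and neither, against 20.2% higher and 30.0% lower of all genes. TNFRSF11A, which encodes the receptor RANK, had 16351 bases in the knockout list and 11619 in the control list, from 3 peaks each, the longest of 13550 and 6979 bases. MALT1, a protease of the NF-kB pathway, had 8666 and 7237 bases. BCL2, the anti-apoptotic founder of its family, had 6514 and 8803 bases from 5 peaks in each list, with highest pileups of 12.17 and 12.93. PMAIP1, which encodes the BH3-only protein NOXA, had 7566 and 7137 bases and 2 peaks in each list, all 4 of them shared.

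The cadherin genes had less coverage in the knockout list, and most serpins lay within 1000 bases. Of all genes 30.0% were lower in the knockout list by 1000 bases or more. All 3 classical type II cadherins of the region, cell adhesion receptors, had fewer covered bases in the knockout list: CDH7 with 0 and 3329, CDH20 with 0 and 2850, and CDH19 with 2507 and 4236 in the knockout and control lists. Their control peaks were weak, at 7.56 to 7.57 pileup for CDH7, 7.13 to 9.05 for CDH20 and 8.78 for CDH19. The longest control run of the region, of 11 peaks (chr18:63971340-66484815), took in CDH7. Of 10 clade B serpins 1 was higher, 2 were lower and 7 lay in between, where all genes gave 20.2% higher and 30.0% lower. SERPINB13, a keratinocyte inhibitor of cathepsins, had 1110 bases and 1 peak in the knockout list, against 5565 bases and 3 peaks in the control list. SERPINB10 had 1027 and 0 bases and SERPINB11 0 and 1002, both at the edge of the threshold. SERPINB7, the most covered of the cluster, had 7437 and 6717 bases.

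Genes of transcription and chromatin were divided. Of 13 transcription factor genes 3 were higher and 3 lower in the knockout list, and 4 had no peak in either. Over all genes those shares were 20.2%, 30.0% and 15.8%. ZNF532, a zinc finger gene, had 21608 and 13446 covered bases in the knockout and control lists, from 7 peaks in each, with highest pileups of 17.56 and 13.98. ZNF407, another, had 22889 and 17497. TSHZ1, a teashirt zinc finger gene, had 1639 and 3940, and ZNF236 1350 and 3113. SALL3, ONECUT2, RAX and SKOR2, regulators of development, had no peak in either list. Among 4 chromatin and methyl-CpG genes, MBD1 had 8192 bases in the knockout list and 5614 in the control list and CXXC1, a subunit of SET1 methyltransferase complexes, 7903 and 6234, whereas MBD2 had 13415 and 17185, a difference that turned to 857 more knockout bases at either cutoff. MBD1 and MBD2 both bind methylated CG pairs.

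Genes of neuronal function were marked in part. Of 12 receptors, ligands and synaptic genes, 6 had no peak in either list, a state shared by 15.8% of all genes: DCC, the netrin receptor and a gene often lost in colorectal cancer, CBLN2, GALR1, MC4R, GRP and ST8SIA3. NETO1 and KCNG2 were the 2 higher ones, and KCNG2, a potassium channel subunit, had 2969 bases in the knockout list and 1652 in the control list. MBP, CPLX4 and ST8SIA5 were the 3 lower ones, MBP only just past the 1000 bases that count as a difference, with ST8SIA5, a ganglioside sialyltransferase, at 3762 and 6800 bases. Metabolic genes held 1 higher, 4 lower and 5 between of 10, against 20.2% higher and 30.0% lower of all genes. CYB5A, cytochrome b5, next to the NETO1 run, had 8698 bases and 4 peaks in the knockout list, against 2929 bases and 2 peaks in the control list. ACAA2, a thiolase of fatty acid oxidation, had 1050 and 3210, and KDSR, an enzyme of sphingolipid synthesis, 3089 and 4398.

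The identity of the cells was checked by 2 marker lists. All 6 mesenchymal-like markers had peaks in both lists, with summed coverage of 202653 bases in the knockout list and 189854 in the control list. VIM, CD44, CAV1 and ZEB1 had more in the knockout list, and AXL and MSN less. Luminal breast markers, at 63929 and 58928 bases, had peaks at 5 of 6 genes in the knockout list and 6 of 6 in the control list, so luminal genes carried the mark too. The gene without a knockout peak was PGR, with 0 and 1081 bases. ESR1, at 36816 and 27383, made up the higher knockout sum, and FOXA1, KRT19, PGR and TFF1 had less in the knockout list.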

How the data were processed

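H3K4me1 ChIP-seq peaks came from 8 samples, which the genotype and antibody labels put into groups. Micrococcal nuclease cut the chromatin, per the labels' protocols. The protocol text names an antibody against H3K4me3, whereas the antibody label and titles name H3K4me1, which is used here. The submitters' processing notes name Bowtie2 2.3.5.1, MACS2 2.2.6 and the build hg38. The sources used here do not say how replicates entered a call, and each list was taken as pooled.

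Each deposited list holds, per the file headers, a peak's length, its pileup (a signal), its fold enrichment over input (a ratio) and the −log10 of its q value. These authors' values served only to describe and filter the peaks of a list. The smallest −log10 q was 1.01 in both. Read totals were not analysed here, so depth is unknown. The smallest gap between peaks was 1445 bases in the knockout list and 1249 in the control list, and the shortest peak 361 and 312, so the same cutoff need not be equally strict in both.

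Python 3.11.15, pandas 2.3.3, NumPy 2.4.6 and SciPy 1.17.1 were used. Peaks on chromosomes 1 to 22 and X, 73600 knockout and 82994 control, formed the background. An overlap of at least 1 base counted as shared. The background formula assumes a pseudocount of 1, and since the values are averages over a peak it is approximate. Genes and promoters came from RefSeq (GRCh38.p14). Bins of 5 Mb were assigned by peak start and genes by record midpoint. Intervals (95%, exact Clopper-Pearson, or for a ratio of 2 counts derived from it) cover counting error only. The code for gene coverage, overlaps and merging was tested on simulated peaks. The members, the 9 gene lists (67 genes) and the rules were chosen with earlier results of these data known, and the runs, the first base of 47 Mb and the classes of peak strength after the values were seen. The rule for named genes picked 1 further gene, counted in the totals but left out of the text and plots.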

Additional observations from a re-analysis of the deposited data

How the results depend on the processing

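No paired analysis was possible because each genotype had 1 pooled list, and for the same reason no replicate could be left out. The ratio of peaks (0.998) was 1.71 with −log10 q of at least 5 and 1.74 with that cutoff and the same merging. In the rest of the lists 27484 knockout and 23833 control peaks passed that q, whereas the uncut ratio there was 0.886. Knockout peaks were thus the more numerous at that q outside the region too. The region's ratio was 1.30 with fold of at least 4 and 0.840 without the 2 longest runs. The ratio of bases (1.11) stayed above 1 with those cutoffs, at 1.63 and 1.34, and was 1.09 with the same merging but 0.951 without the runs. The knockout share without overlap (32.7%) was 62.1% at that q, also with merging, and 58.6% at that fold. Both lists were cut for these, so a peak whose partner missed the cutoff counted as without one. Of the region's knockout peaks at that q, 8.05% overlapped no peak of the uncut control list. The knockout share was 40.9% with an overlap of 50% required and 20.0% without the runs. The control share (31.1%) was 44.4% at that fold and 38.9% with the 50% overlap. Starting at 47 Mb gave 1.03, 1.13, 34.2% and 30.9% for these 4 values. Genes lower (38) numbered 7 at that q, 10 at that fold, 21 with 2000 bases and 23 with a ratio of 1.5 required, and genes higher (30) 23, 20, 15 and 13 in the same order. The bin from 45 to 50 Mb turned to 1.22 at that q, with or without merging, and 1.05 at that fold, and the bin from 60 to 65 Mb to 1.99 at that q, with or without merging. The bins from 50 to 55 and 55 to 60 Mb moved to 2.87 and 2.09 at that q. At that q and that fold differences turned at SMAD7 (−2768 and −2768 bases), MBD2 (857 and 857), NEDD4L (30405 and 15176), ATP8B1 (1696 and 1696) and PHLPP1 (2819 and 1067). The causes were not tested. Of the 38 named genes, 11 kept direction and 1000 bases at that q and 11 at that fold, 22 had no difference left at each and 5 turned. With the gene record alone 32 kept them, and with the same merging or margins of 10000 bases 38 did. From 65 to 70 Mb no control peak passed either cutoff, so no ratio was had.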

Other observations

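Records that code for no protein lay under both runs. In the run from TCF4 to TXNL1, 7 of 13 long non-coding RNA records had a knockout peak. The run holds no control peak by the way it was found. Over all chromosomes 41.9% of 18177 such records had a knockout peak and 44.0% a control peak. LOC105372130 was covered over 13212 bases, LOC107985183 over 4135, TCF4-AS1, antisense to TCF4, over 3558 and LINC03069 over 2968. The hairpin record of MIR4529 was covered over 78 bases. In the NETO1 run 5 of 15 long non-coding records had a knockout peak, with LOC105372190 covered over 20449 bases and NETO1-DT over 1841. Peaks do not carry strand, so coverage of a record cannot be told apart from that of an overlapping gene.

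Over the whole region 126 knockout peaks (21.9%) and 91 control peaks (15.8%) had their midpoint over 50 kb from a protein-coding record. The shares were 18.9% and 18.2% in the rest of the lists, and 22.4% and 30.3% in the rest of chromosome 18. Of the 126 knockout peaks, 25 lay in the TCF4 run and 29 in the NETO1 run, so the knockout share leans on the runs. Control runs of 5 or more peaks without knockout overlap numbered 6 in the region, against 3 knockout runs of that length. Over the whole genome such runs were also commoner in the control list, at 531 against 232. After the control run of 11 peaks that takes in CDH7, the next control run of the region had 9 peaks (chr18:60232492-60694097).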
